A study of Mus musculus with 24 samples.

Results

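Expression of 9 genes known from the cerebellum, the hindbrain and the olfactory system was followed in the brain, liver, heart and skeletal muscle of 6 female mice. The genes were Cbln1, Cbln3, Pcp2, Zic1, Zic4, En2, Car8, Omp and Bpifb4. They were chosen by symbol from 21370 named genes on the arrays, because their levels had been seen to differ among the 6 brains, so their brain levels, and the genotype differences in brain that rest on them, are given as a description. Of the 6 mice, 3 were Rap1 KI/KI, carrying the knockin point mutation I312R in both copies of Rap1 (gene symbol Terf2ip), and 3 were wild type (WT). The knockin line had been made by CRISPR/Cas9 editing and back-crossed to C57BL6, named as C57BL/6N in the methods. By order of animal number, letters A to C stand for the KI mice and D to F for the WT mice. Age was 14 months for C and F and 15 months for A, B, D and E. The substitution leaves a Rap1 transcript in place, so transcript levels are no check of the genotype labels. Each mouse gave 1 Agilent 1-colour array per tissue, 24 arrays in all. The sources say that brain tissue was homogenized for RNA, without naming the regions taken.

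In the cerebellum, granule cells send their axons to Purkinje cells, and Purkinje cells carry the output of the cerebellar cortex. Cerebellins are secreted by granule cells and organize the synapse between the granule cell axon and the Purkinje cell. The Zic and Engrailed factors pattern the hindbrain and its cerebellar primordium and stay active in the adult cerebellum. Olfactory sensory neurons lie in the lining of the nose, and their axons end in the olfactory bulb at the front of the brain.

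Sequence upstream of the start was at hand for 5 of the 9 genes (Pcp2, Cbln3, Zic1, Zic4 and Bpifb4), taken from RefSeq on GRCm38.p6. A Purkinje cell gene, a granule cell gene, a hindbrain patterning gene and the nasal gene are shown, each as the 250 bases before an annotated start, 5′ to 3′ on the strand of the gene. Capitals mark the hexamer AGGTCA or its reverse complement TGACCT, the half-site bound by orphan nuclear receptors such as RORA, a factor that Purkinje cells depend on.
Pcp2, chr8:3625548-3625797, minus strand: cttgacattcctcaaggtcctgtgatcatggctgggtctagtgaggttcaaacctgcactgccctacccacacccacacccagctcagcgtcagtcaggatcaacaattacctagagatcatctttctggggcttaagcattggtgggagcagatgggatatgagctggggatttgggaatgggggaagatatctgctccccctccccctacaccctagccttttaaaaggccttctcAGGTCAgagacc
Cbln3, chr14:55884257-55884506, minus strand: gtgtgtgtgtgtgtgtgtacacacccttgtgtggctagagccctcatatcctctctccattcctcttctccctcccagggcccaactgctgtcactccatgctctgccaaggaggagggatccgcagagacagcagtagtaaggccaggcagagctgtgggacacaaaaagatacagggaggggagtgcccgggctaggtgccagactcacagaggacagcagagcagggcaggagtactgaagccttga
Zic1, chr9:91365769-91366018, minus strand: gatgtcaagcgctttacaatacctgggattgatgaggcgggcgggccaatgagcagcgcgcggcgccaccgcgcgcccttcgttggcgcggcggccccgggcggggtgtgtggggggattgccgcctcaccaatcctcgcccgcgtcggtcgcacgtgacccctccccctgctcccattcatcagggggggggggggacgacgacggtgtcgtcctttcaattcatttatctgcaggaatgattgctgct
Bpifb4, chr2:153940612-153940861, plus strand: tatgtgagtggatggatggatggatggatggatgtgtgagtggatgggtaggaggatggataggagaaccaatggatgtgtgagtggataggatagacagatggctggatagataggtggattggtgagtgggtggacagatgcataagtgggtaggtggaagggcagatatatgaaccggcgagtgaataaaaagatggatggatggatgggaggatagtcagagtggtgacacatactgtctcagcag
Of these 4 windows, that of Pcp2 holds the hexamer, beginning at position -12 counted back from the start. It occurs in 14% of 32851 such windows of all genes. The E-box CANNTG, which reads the same on both strands and is bound by factors such as NEUROD1, occurs 1 time each in the windows of Pcp2, Cbln3 and Zic1 and 2 times in that of Bpifb4, against 66.2% of all windows with at least 1. These matches describe the letters only. Pcp2 has several annotated starts, of which the most upstream is shown. The windows of the other starts hold that same copy at -87, a different copy at -26, or none. The start shown for Bpifb4 lies within the span of the gene.

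Levels are given as log2 of the processed signal minus log2 of the 75th percentile of the array, so that a step of 1 is a doubling and 0 is the 75th percentile itself. Levels of different genes come from different probes and are not set against each other. All 9 genes were well above background on all 6 brain arrays. Before the values, 1 array needs naming: the brain of KI mouse C correlated with the other brains at r = 0.958 to 0.969, against up to 0.993 between brains. It also carried liver transcripts, and those values are given with the results.

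The 7 cerebellar and hindbrain genes were all lowest in the brain of KI mouse C. Cbln1, the cerebellin that organizes granule cell to Purkinje cell synapses, stood at 4.12, 3.55 and 1.07 in the brains of KI mice A, B and C and at 3.24, 3.88 and 3.56 in the WT brains (D, E, F). Its level in mouse C was 17.8% of the median of the other 5 brains. Cbln3, a cerebellin of granule cells that assembles with Cbln1, was at -0.39, -0.54 and -3.47 in the KI brains and at -1.64, 0.23 and -1.04 in the WT brains. Mouse C lay below every other brain for both cerebellins, while KI mice A and B lay within the WT span for Cbln3 and mouse A was the highest brain for Cbln1. In bulk tissue, fewer cells of a type and less RNA per cell cannot be told apart.

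Pcp2, a Purkinje cell protein that modulates G protein signalling, was at 6.12, 5.43 and 2.16 in the KI brains and at 5.19, 6.08 and 5.51 in the WT brains. In mouse C it stood at 9.78% of the median of the others, the lowest share among the 7 genes. Car8 encodes a carbonic anhydrase-related protein without the enzyme's activity that binds the IP3 receptor in Purkinje cells. Its levels were 2.17, 1.25 and -1.07 in the KI brains and 0.90, 2.07 and 1.42 in the WT brains, which put mouse C at 17.8% of the median of the others. Its second probe gave 13.4%. Both Purkinje cell genes thus separated mouse C from the other 5 brains by more than the whole spread of those 5, which was 0.93 for Pcp2 and 1.27 for Car8.

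En2, the homeobox gene of the midbrain and hindbrain, was at 2.24, 1.71 and -0.83 in the KI brains and at 1.25, 2.29 and 1.55 in the WT brains. Zic1, a zinc finger factor of cerebellar granule cells and their precursors, was at 4.92, 4.46 and 3.18 in the KI brains and at 4.16, 4.59 and 4.56 in the WT brains. Its neighbour Zic4, which lies head to head with it, was at -0.48, -0.69 and -1.60 in the KI brains and at -1.13, -0.26 and -0.56 in the WT brains. Mouse C was again the lowest for all 3 genes, at 17.2% of the median of the others for En2, 38.3% for Zic1 and 48.7% for Zic4. The second probes of Zic1 and Zic4 gave 44.1% and 56.5%. The gap was therefore smaller for the Zic genes than for the other 5, a description that rests on 1 brain.

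The other brains were also ordered alike. In all 7 genes WT mouse D was the next lowest after mouse C, and KI mouse A and WT mouse E were the highest pair. The second probe of Car8 departed from this, with KI mouse B (0.28) next to mouse C and mouse D at 0.37. So did the second probe of Zic4, where WT mouse F (-1.31) stood above WT mouse E (-1.48), while C and D remained the lowest pair. The order of the first probes, with C lowest, D next and A and E on top, was noticed in these genes. It occurred in 450 of the genes tested in brain, or 2.8%. By the first probes, WT mouse F, of the same age as mouse C, held rank 3 or 4 of 6 in each of the 7. Across all genes tested in brain, the median range over the 6 brains was 0.55, and 3.94% ranged over more than 2. The range was 3.05 for Cbln1, 3.70 for Cbln3, 3.96 for Pcp2, 3.11 for En2 and 3.24 for Car8, and 1.74 and 1.34 for Zic1 and Zic4. Without mouse C the 7 ranges fell to between 0.75 for Zic1 and 1.87 for Cbln3, beside a median of 0.47 over all genes.

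The 2 nasal and olfactory genes ran the other way in mouse C. Omp, the olfactory marker protein of mature olfactory sensory neurons, was at 1.54, 1.21 and 5.64 in the KI brains and at -2.93, 0.78 and 2.25 in the WT brains. The brain of mouse C was 21.6-fold above the median of the others, and mouse D minus the median of its others was -4.48 on the log2 scale. Bpifb4, of a family of secreted proteins of the nasal and airway lining, was at -2.82, -4.24 and 6.07 in the KI brains and at -4.94, -4.41 and -4.62 in the WT brains. It was 10.48 higher (log2) in mouse C than the median of the others, and the other 5 brains spanned 2.11. Omp thus had 1 brain far above and 1 far below the remaining 4, which spanned 1.47, while Bpifb4 had a single high brain. Mouse D was the lowest brain for both.

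**Figure D1:**
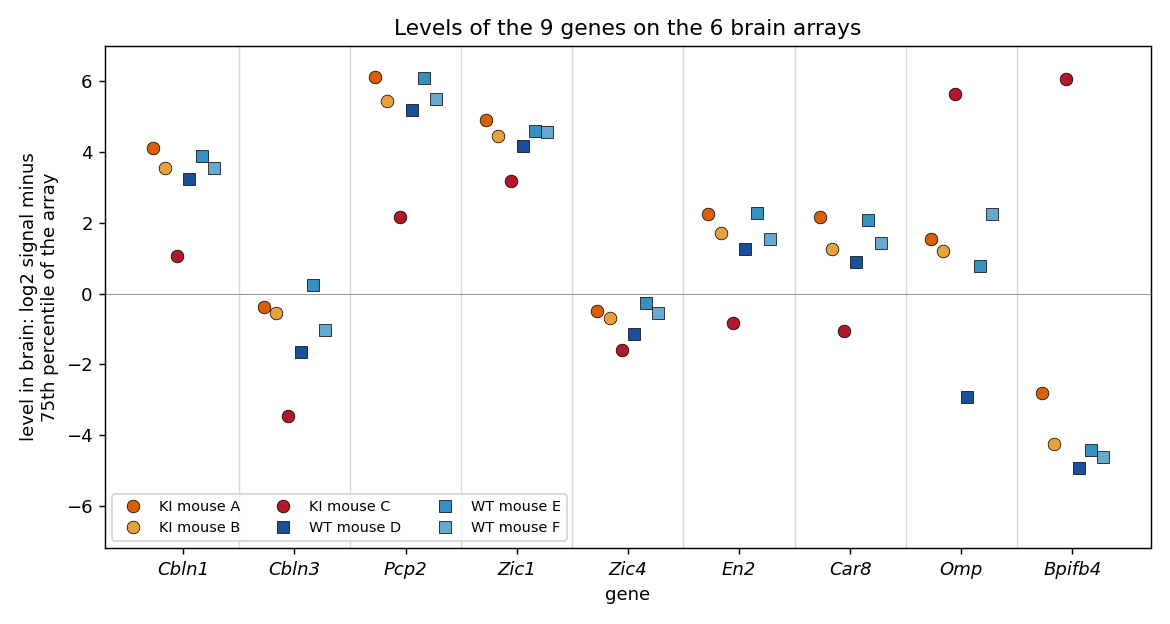
Level of each of the 9 genes (x axis) on the 6 brain arrays (y axis, log2 signal minus the 75th percentile of the array), with circles for KI and squares for WT mice. KI mouse C (dark red) is the lowest point for the 7 genes from Cbln1 to Car8 and the highest for Omp (5.64) and Bpifb4 (6.07), and WT mouse D (dark blue) is lowest for Omp (-2.93).

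Genes of the same cells and regions were read on the same arrays. Over all genes tested in brain, mouse C was the lowest brain in 30.9% and the highest in 16.6%, and mouse D was the lowest in 10.8%. Of 9 granule cell genes, 7 were lowest in the brain of mouse C. Gabra6, the GABA receptor subunit of granule cells, was at -2.17 in mouse C and between 1.26 and 2.71 in the others. The difference of mouse C from the median of the others was -4.14 for Gabra6, -0.66 for Etv1, -0.57 for Grin2c and -0.74 for Cadps2. Of 7 Purkinje cell genes measured on every brain, 6 were lowest in mouse C. Among them the glutamate transporter gene Slc1a6 was at 2.35 in mouse C and between 3.69 and 4.19 in the other brains, and Ppp1r17, which encodes an inhibitor of protein phosphatases, was at -2.56 against -0.04 to 1.62. Rora was at 1.36 in mouse C and between 2.17 and 2.48 elsewhere. Pcp4, which many brain regions express, differed by -0.07 from the median of the others, and Itpr1, the IP3 receptor that Car8 binds, by -0.53. The distance of mouse C thus varied widely within both cell type lists.

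Several other genes of the cerebellin pathway ranged less among the brains than Cbln1 and Cbln3. Nrxn2 and Nrxn3, neurexins of the axon side of the synapse, ranged over 0.52 and 0.63 among the 6 brains, and Cbln2 and Cbln4, the family members of other regions, over 0.83 and 0.60. Within the Zic family, Zic2 and Zic5 were lowest in mouse C with Zic1 and Zic4. Car10 and Car11, the other carbonic anhydrase-related genes, ranged over 0.60 and 0.57, against 3.24 for Car8. Mouse C was the lowest brain for Car10 and not for Car11.

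Hindbrain nuclei did not move as a block. Of 10 such genes on the array, 4 were measured on every brain, and 1 of these was lowest in mouse C, near the share of all genes. Dbh, the noradrenaline enzyme, was at -3.09 in mouse C and from -2.71 to 0.38 in the others. The serotonin gene Tph2 was at -3.80 in mouse C, within the span of -5.16 to -1.32 of the other brains, and Lmx1b and Fev, factors of serotonin neurons, differed in mouse C by -0.17 and -0.05 from the medians of the others. The serotonin genes of the hindbrain thus did not share the low level of En2 and the Zic genes in mouse C.

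Olfactory genes followed Omp and Bpifb4 in part. Of 9 olfactory sensory neuron genes measured on every brain, 8 were highest in mouse C. S100a5, a calcium-binding protein of these neurons, was at 1.57, 1.77 and 4.67 in the KI brains and at -2.68, 0.07 and 2.24 in the WT brains, which left mice C and D at the ends, as for Omp. Gng13 and Gnal, G protein subunits that other brain regions also express, ranged over 0.39 and 0.87. Stoml3, whose product lies in the cilia of olfactory neurons, was at 1.26 in mouse C and between -4.86 and -3.25 elsewhere. In the olfactory bulb list, 5 of 6 genes were highest in mouse C and 5 of 6 were lowest in mouse D. Cdhr1, a cadherin of bulb neurons, was at 1.94 in mouse C, -1.53 in mouse D and from 0.07 to 1.22 in the others, and Doc2g was at 1.51, -1.94 and from -0.22 to 0.71. Th and Trh were at 2.84 and 2.45 in mouse C.

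Some genes of the nasal mucosa were high in mouse C, like Bpifb4. The array held 9 of them, and only Obp1a and Sec14l3 were measured on every brain. Sec14l3 was at -1.70 in mouse C and between -5.42 and -4.97 in the others, whereas Obp1a ranged over 0.73. Bpifb3, Cyp2g1 and Bpifb9b, named after their values were seen, were at 6.31, 4.60 and 4.18 in mouse C. In the other brains their highest values were -1.50, -0.93 and -2.88. The liver arrays had means of -0.18 for Sec14l3 and 3.14 for Cyp2g1, against -6.99 for Bpifb3 and -5.8 for Bpifb9b. The part of liver transcripts in the Sec14l3 and Cyp2g1 values of the brain of mouse C was not tested. The log2 of the summed signal of the mucosa list was 6.98 in mouse C and between -1.40 and 0.50 in the others. Bpifa1 and Reg3g, also named after their values were seen, were well above background in 3 and 1 brains. They were at 1.56 and -0.79 in mouse C, and their highest values in the other brains were -4.82 and -7.58. Lcn11 and Obp2a, of the same list, were not well above background in any brain.

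The nearest profiles in brain were found by the root mean square difference between brain values, each gene centred on its own mean over the 6 arrays. Hes3, Crtam and Dao were closest to Pcp2, at differences of 0.0831, 0.131 and 0.186. Neurod1, a transcription factor of granule cells, was closest to Cbln3 at 0.13, and Zfp385c to Cbln1 at 0.0705. En2 was among the 3 nearest of Cbln1 and the nearest of Car8, and Zic2 was the nearest of Zic1 at 0.121. Zic4 had Sp5 closest at 0.0928, and En2 had Iltifb at 0.0975. For Omp the nearest was S100a5 at 0.534, and for Bpifb4 it was Bpifb6, of the same family, at 0.443, with 5.19 in mouse C and -5.08 to -3.64 elsewhere. All points share the array of mouse C, which dominates these profiles.

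Other brain regions were also unequal among the samples. The choroid plexus, which lines the ventricles and makes cerebrospinal fluid, gave 8 genes measured on every brain, with medians 1.06 above the others in mouse C and 0.69 above in mouse D. Of the 8, 3 were highest in mouse C, and the mean level of the list was highest in mouse E, at 1.34, with 1.16 in mouse C and 0.76 in mouse D. Striatal genes were 0.56 higher at the median in mouse C, and 6 of 10 were highest there. Cortical and hippocampal genes lay at a median of -0.20 and thalamic genes at -0.47. Hypothalamic genes had a median of 0.18 and differed in direction. Hcrt was at -0.91 in mouse C and between 1.27 and 4.50 in the others. Oxt was at 3.09 in mouse C, 1.8 above the median of the others, which ran from -0.23 to 4.02. Without mouse C, Hcrt, Oxt and Pmch still ranged over 3.22, 4.24 and 4.35, and Gal over 0.36. Genes of neurons of any region had a median of -0.18, and Snap25 ranged over 0.37. Of the 7 pituitary genes, Lhb was measured on every brain and lay 0.46 above the others in mouse C. Prl, the prolactin gene, named after its values were seen and well above background in 3 brains, was at -0.94 in mouse C and between -8.42 and -4.71 elsewhere. The rest of that list did not share this: Gh, Cga, Fshb and Pou1f1 were well above background in no brain, and Tshb was at -8.13 in mouse C.

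Liver transcripts moved with mouse C as well. All 7 liver genes on the array were well above background in the brain of mouse C, against 3 to 6 in the others, and the log2 of their summed signal was 8.13 there and 3.01 to 3.59 in the other brains. Alb, the serum albumin gene, was at 6.53 in mouse C and between -7.11 and -0.82 elsewhere, and its mean in liver was 9.67. The liver of mouse C itself had Omp at -2.85, and Bpifb4 was not well above background there. The part of these liver transcripts in the values of the 9 genes was not tested. Heart and skeletal muscle genes did not set mouse C apart in the same way: the log2 summed signals in its brain were 0.40 and -0.14, within the spans of 0.03 to 0.88 and -0.28 to 0.15 of the others.

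**Figure D2:**
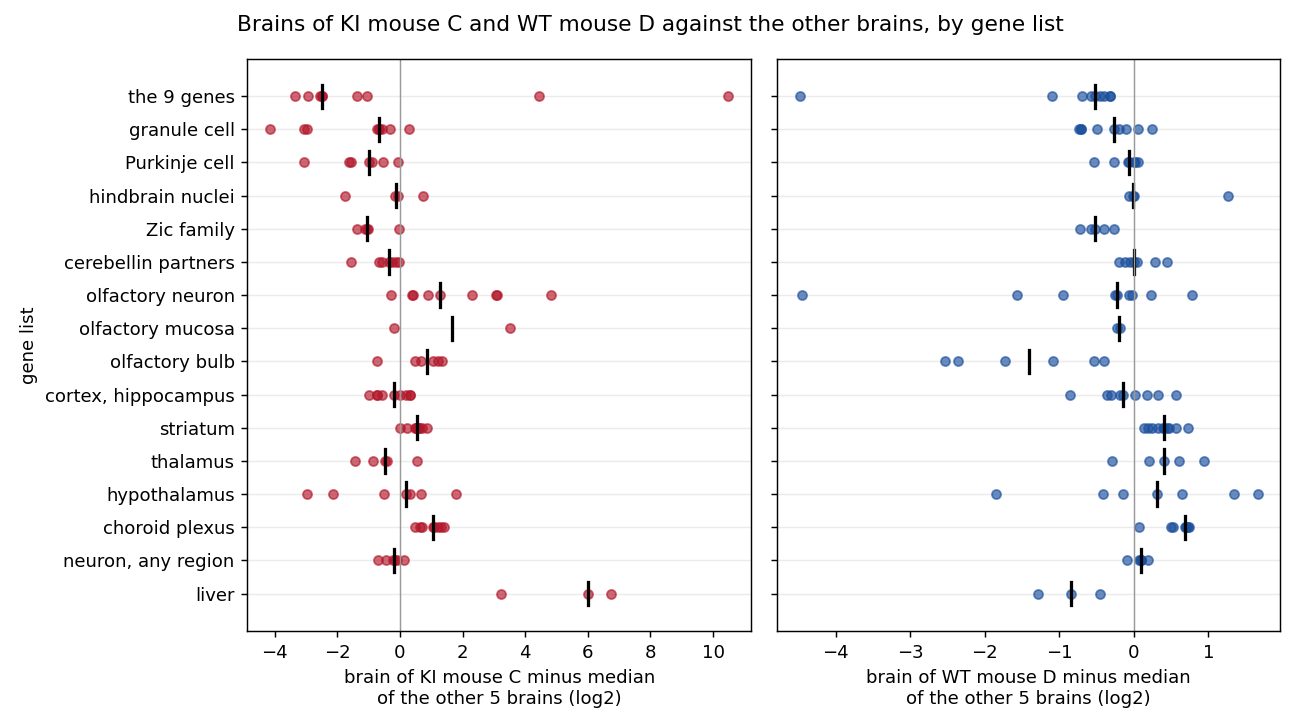
Each point is a gene measured on all 6 brains, placed by its level in the brain of KI mouse C (left) or WT mouse D (right) minus the median of the other 5 brains (x axis, log2), with a black bar at the median of each gene list (y axis). Granule and Purkinje cell genes reach -4.14 and -3.05 in mouse C, olfactory bulb genes have a median of 0.87 in mouse C and -1.41 in mouse D, and the 3 liver genes measured on every brain lie from 3.23 to 6.73 in mouse C.

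The KI and WT brains were compared with limma over 16073 genes, of which 0% passed an adjusted p of 0.05 and 127 had an unadjusted p under 0.05. Nothing is read from this for the 9 genes, since their brain values chose them. Their differences, KI minus WT with standard errors, were -0.65 ± 0.74 for Cbln1, -0.65 ± 0.88 for Cbln3 and -1.03 ± 0.96 for Pcp2. They were -0.66 ± 0.77 for En2, -0.68 ± 0.79 for Car8, -0.25 ± 0.43 for Zic1 and -0.27 ± 0.35 for Zic4. Omp differed by 2.76 ± 1.61 and Bpifb4 by 4.32 ± 2.48. The median over the 9 was -0.65, beside -0.03 over all genes tested. In each of the 9 genes mouse C was the KI brain furthest from the WT mean.

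Without mouse C the 7 cerebellar and hindbrain differences turned positive, from 0.07 ± 0.27 for Zic4 to 0.35 ± 0.50 for Cbln3, and Pcp2 became 0.18 ± 0.32. Omp fell to 1.34 ± 1.35 and Bpifb4 to 1.12 ± 0.41, on the same scale. Omp in turn depended on mouse D, without which its difference was 1.28. KI and WT brains did not overlap for Bpifb4 alone of the 9, where 2.86% of genes did not overlap in brain. Its lowest KI brain, B at -4.24, lay just above its highest WT brain, E at -4.41.

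The brains had been hybridised on 2 slides. On the slide with mice A and D, the 7 cerebellar and hindbrain genes were 0.65 to 1.27 higher in the KI brain. On the slide with mice B, C, E and F KI minus WT was negative for all 7, at -0.73 for Zic4 and -1.41 for Cbln1, and furthest from 0 for Pcp2. Omp was higher in KI on both slides, by 4.48 and 1.90, and so was Bpifb4, by 2.11 and 5.43. With the slide as a block the differences equalled those without it.

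**Figure D3:**
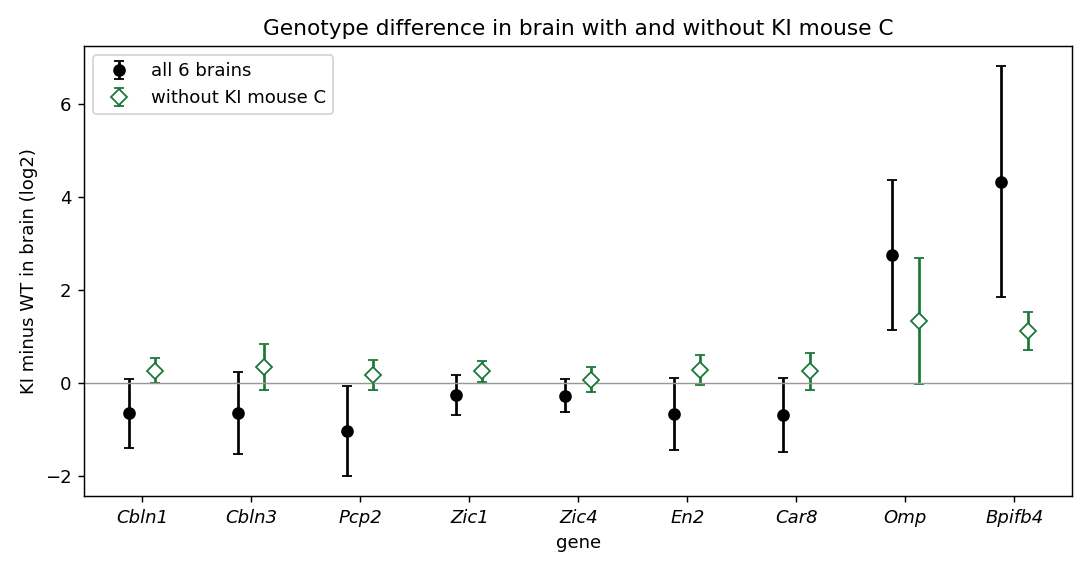
KI minus WT difference in brain (y axis, log2) for each gene (x axis), from all 6 brains (filled circles) and without KI mouse C (open diamonds), with bars for 1 standard error of the limma fit. The 7 genes from Cbln1 to Car8 are below 0 with all brains and above 0 without mouse C, and Bpifb4 drops from 4.32 to 1.12.

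In the other tissues, Cbln3 alone of the same 9 genes was well above background on no array. Each of the others was well above background on at least 1 array outside brain. No liver array had Cbln1 well above background, and its brain mean of 3.24 ± 1.10 (SD, n = 6) was at least 316-fold higher. In heart it was at -3.69 ± 0.71, which put brain 122-fold above heart, and in muscle 1 array of 6, that of KI mouse B at -3.58, was well above background. Cbln3 was not well above background in liver, heart or muscle, and brain was at least 15.2-fold, 19.3-fold and 10.1-fold higher. These bounds set the brain mean against the lowest signal well above background on each array, or the value of the gene itself where that was higher. The brain of mouse C stayed above every array of the other tissues for both genes.

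The liver of mouse C, which also held muscle transcripts, is included in the liver means. Pcp2 was well above background everywhere, at 5.08 ± 1.48 in brain, -0.69 ± 0.15 in muscle, -1.48 ± 0.24 in liver and -2.04 ± 0.20 in heart, with no overlap between neighbours in that order. En2 was at 1.37 ± 1.15 in brain, -1.12 ± 0.74 in muscle, -3.05 ± 0.35 in liver and -3.54 ± 0.13 in heart. Its brain level in mouse C, -0.83, fell inside the muscle range of -2.13 to -0.27, and liver and heart overlapped. Zic1 followed brain (4.31 ± 0.61) with muscle (-0.84 ± 0.92) by its first probe, 35.6-fold lower, then heart, at -4.80 to -4.01 and well above background on 5 of 6 arrays, while liver was well above background on 1 array. The second probe of Zic1 was well above background on every array, with muscle at -2.78 ± 0.14, liver at -3.06 ± 0.22 and heart at -3.24 ± 0.28, so the probes place muscle and liver differently.

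Car8 had a mean of 1.12 ± 1.18 in brain and 1.05 ± 0.21 in liver by its first probe, and brain and liver overlapped. Heart was at -0.98 ± 0.15 and muscle at -2.33 ± 0.25, with no overlap between heart and either neighbour except the brain of mouse C at -1.07. Its second probe put liver at -0.81 ± 0.19 and brain at 0.41 ± 1.30, so the closeness of liver and brain rests on the first probe. Omp was at 1.42 ± 2.75 in brain, -2.48 ± 0.44 in liver, -2.93 ± 1.40 in muscle and -4.29 ± 0.25 in heart. Liver and muscle overlapped, and the brain of mouse D, at -2.93, lay below every liver and above 4 of the 6 muscles. The muscle of WT mouse E stood apart at -0.24, the other 5 being between -3.96 and -2.58. Bpifb4 was well above background on 1 of 6 liver arrays and on none of the heart or muscle arrays.

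Zic4 had an irregular muscle signal. Its first probe was at -4.10, 1.29 and 1.11 in the muscles of KI mice A, B and C and at -3.38, -4.14 and -4.19 in the WT muscles, and only B, C and D were well above background. The KI muscles of B and C were the high arrays, and KI mouse A lay among the WT muscles. The second probe of Zic4 was not well above background on any muscle array, with levels of -6.63 to -6.14. Zic4 was therefore not tested in muscle with all arrays. Leaving out KI mouse A lets the first probe through the filter by its high KI arrays alone, so no test of it is given.

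**Figure D4:**
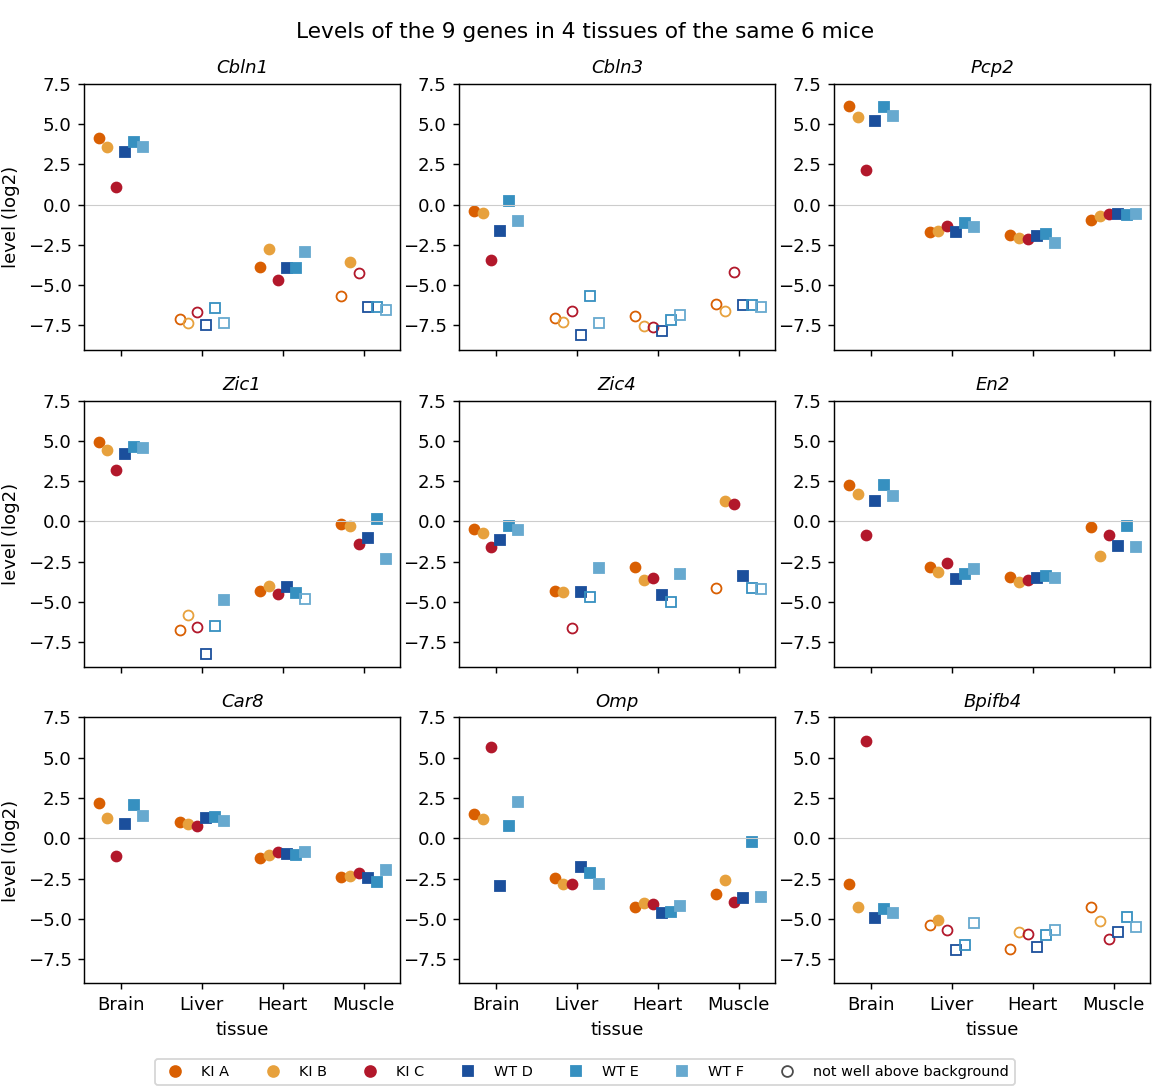
Level (y axis, log2 signal minus the 75th percentile of the array) of each gene in brain, liver, heart and muscle (x axis) of the same 6 mice, with circles for KI and squares for WT, and open symbols where the probe was not well above background. Cbln3 is filled in brain alone, Car8 in brain overlaps liver, and the Zic4 probe shown is high in the muscles of KI mice B (1.29) and C (1.11).

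Outside brain, 4 of the 9 genes could be tested in liver, 7 in heart and 5 in muscle, with 0 past the threshold (limma, 0% of all genes in each of the 3 tissues, with 1653, 245 and 115 at an unadjusted p under 0.05). In liver, Car8 was at 1.03, 0.91 and 0.75 in KI and at 1.24, 1.33 and 1.05 in WT mice. KI lay below WT without overlap, by -0.31 ± 0.14 (limma adjusted p = 0.437), in a tissue where 19.7% of genes did not overlap, and its second probe differed by 0.09, in the other direction. En2 in liver differed by 0.44 ± 0.21 and Omp by -0.46 ± 0.28, with overlapping groups. The liver of mouse C carried skeletal muscle transcripts: 7 of 7 muscle genes were well above background there, at a mean level of 0.32, against 1 to 5 and means of -6.10 to -5.26 in the other livers. En2, higher in muscle than in liver, was highest in that liver, at -2.57. Without mouse C the liver differences were 0.31 for En2, -0.39 for Omp, -0.23 for Car8 and -0.24 for Pcp2, and the part of the muscle transcripts in them was not tested. In heart the largest difference was 0.94 ± 0.46 for Zic4 (limma adjusted p = 0.971), and its second probe was not well above background there. None of those tested was without overlap in heart or muscle, where 5.03% and 3.54% of all genes were. In muscle Omp differed by -0.81 ± 0.94, which became 0.34 without WT mouse E.

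The question whether the genotype difference varied between tissues was put to a moderated F-test over all 24 arrays. By limma 0% of 17299 genes passed, with 323 at an unadjusted p under 0.05. No value of it is given for the 9 genes, since it includes the brain levels that chose them. Among the fixed lists of cell type and region genes, 0 members passed the brain comparison in any list.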

How the data were processed

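Each sample gave 1 Cy3-labelled 1-colour array. The authors extracted each deposited intensity with Agilent Feature Extraction 12.0.3.1, whose processed signal is corrected for background and for trends within an array and is not normalized between arrays. They also deposited a score per feature, a z-score of the log signal within each array, used as an alternative. The 75th percentile, over the 59305 spots that are not controls, was 312.5 to 2519.4, and 49.4% to 68.4% of probes were well above background. Control and outlier spots were left out, spots of 1 probe were averaged, and probes were named through accessions in RefSeq's table for GRCm38.p6. An older build underlies the array, so probe coordinates are not given, and the upstream windows are placed on GRCm38.p6. The 9 genes had 12 probes, and the probe with the highest mean over the 24 arrays stood for a gene.

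A gene was tested in a tissue if well above background on all 3 arrays of a genotype. Each tissue was fitted with limma 3.58.1 in R 4.3.3 (two-sided, Benjamini-Hochberg over all genes tested, threshold 0.05), which was tested on simulated data. Array number limits the precision, and with 3 mice a group an exact permutation test cannot reach that threshold. The 9 genes and the lists were chosen with earlier results of these data known. From each list the genes with the highest brain level, those a range rests on, and the 3 nearest profiles of each of the 9 genes were named; further list genes were named after their values were seen. The mice are the same animals in all tissues, but their deviations correlated weakly between tissues (mean r = 0.0207, from -0.263 to 0.339, over 11620 genes), and no mouse is in both groups of a tissue. Alternatives were quantile normalization, normexp background, the deposited scores, no filter on dim probes, array weights, a 24-array fit without and with the mouse as block, the slide as block, the other probe and leaving out each array. A few list genes are not reported here.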

Additional observations from a re-analysis of the deposited data

How the results depend on the processing

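Of 350 alternative values of the 9 genes (KI minus WT, in log2, or in z-score units for the deposited scores), 35 turned direction. In brain, array weights turned Cbln3 (0.15), Zic1 (0.05) and Zic4 (0.03), and leaving out KI mouse C turned 7 genes. Leaving out each brain in turn gave -1.25 to 0.27 for Cbln1, -1.19 to 0.35 for Cbln3, -1.80 to 0.18 for Pcp2, -0.62 to 0.25 for Zic1, -0.51 to 0.07 for Zic4, -1.25 to 0.28 for En2 and -1.37 to 0.25 for Car8. Left-out arrays also turned Pcp2 in liver (-0.28 to 0.01), Cbln1 (-0.64 to 0.30), Pcp2 (-0.16 to 0.11) and Zic1 (lowest -0.01) in heart, and Zic1 (-0.18 to 1.05), En2 (-0.34 to 0.53), Car8 (lowest -0.09) and Omp (-1.39 to 0.34) in muscle. In heart, Pcp2 became -0.01 with quantile normalization, -0.0035 with normexp, -0.0033 with the deposited scores and -0.04 with array weights, Cbln1 became 0.04 with normexp, and Zic1 became -0.08 with array weights. The other probe gave -0.13 for Zic1 and -0.13 for Zic4 in heart, -0.03 for Zic1 and -0.32 for Car8 in muscle, and 0.09 for Car8 in liver. The cause was not tested.

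Over all genes, the 24-array fit called 3 genes in liver, and 3 with the replicate block of the mouse, against 0. Leaving out 1 array gave 0 to 1 genes in heart, the 1 arising when mouse C was dropped, 0 to 4 in muscle, where dropping mouse A gave the 4, with Zic4 among them through its high KI arrays alone, and 0 to 1 for the difference between tissues (1 without KI mouse B and 1 without WT mouse D), which quantile normalization also took to 1. Outside brain, the block changed no call of the 9 genes. With 3 arrays a group, and levels near background outside brain for several of the 9, small differences were not detectable.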
